A study of Homo sapiens with 5 samples.

Results

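The 53 genes described here, called members below, act in the lysosome, in autophagy and in the mTORC1 pathway, and were chosen by name, without use of their measured values, from a table that lists 64252 gene identifiers. All 53 were matched to 1 row of the table each, and 51 had enough counts to be among the 15341 genes tested. They comprise 3 transcription factors of the TFEB family, 13 lysosomal hydrolases, activators and membrane proteins, 6 proteins of the proton pump, 5 autophagy receptors, 4 ATG8 proteins, 5 genes of the ULK complex with ATG9A, 4 of the class III PI3 kinase complexes, 8 WIPI and ATG8 conjugation genes, and 5 of mTORC1 and its Rag GTPases.

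The cells were RPE-1, an immortalized human line derived from retinal pigment epithelium, and RNA was collected 48 hr after transfection. Control cells received a control siRNA (siCtrl, 3 libraries) and knock-down cells a pool of siRNAs against FAM53C (siFAM53C, 2 libraries), both at 5 µM by the sample labels. The study examines FAM53C as a regulator of entry into S phase, and the comparison asks how the transcriptome of these cells differs when FAM53C is knocked down. Nothing in the labels says that the libraries came from separate cultures, so the p-values measure the spread between these libraries, which may be technical.

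Lysosomes are acidic organelles in which hydrolases break down material brought in by endocytosis or by autophagy, and a proton pump, the V-ATPase, keeps them acidic. In autophagy, the ULK1 kinase complex starts the formation of a membrane that ATG8 proteins decorate and that encloses cargo bound by receptors such as p62. mTORC1, a kinase complex that Rag GTPases recruit to the lysosomal surface when amino acids are plentiful, restrains both ULK1 and the TFEB family of transcription factors, which bind CACGTG-containing elements near the start of many lysosomal genes. Pigment epithelial cells of the eye are known for heavy lysosomal work, since they digest the shed outer segments of photoreceptors.

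Depth ranged from 19260124 to 25615415 counts per library. FAM53C itself (ENSG00000120709, GRCh38 chromosome 5 from 138331935 to 138349729 on the plus strand) had 60.9, 59.7 and 57.6 CPM in siCtrl and 14.2 and 22.3 CPM in siFAM53C; CPM are counts scaled to a fixed library total with TMM factors. Its log2 fold change of siFAM53C against siCtrl was -1.71 (SE 0.19; adjusted p = 0.0036; edgeR quasi-likelihood, Benjamini-Hochberg adjustment). Opposite-strand genes, CDC25C among them, overlap 704 of its exon bases. On the first principal component (39.8% of the variance) a pair of libraries, the third of siCtrl and the second of siFAM53C, lay together at 33.7 and 44.9, and siCtrl replicates 1 and 2 lay apart at -31.5 and -47.4, with siFAM53C replicate 1 at 0.26. Mitochondrial genes took 4.51% and 4.79% of the counts in that pair and 3.56% to 3.89% in the other libraries. The columns of that pair in the deposited table both carry the number 3, and what the number stands for is not given in the sources used here. Each difference was therefore also computed within the sides, first between siFAM53C replicate 1 and the mean of siCtrl replicates 1 and 2, then between the pair numbered 3. A further edgeR model held a term for the libraries numbered 3, called the term below. Of the markers, the epithelial keratins KRT8 and KRT18 were present at 236 to 328 CPM and 148 to 182 CPM over the 5 libraries, the pigment epithelial factor OTX2 at 13.5 to 17.1 CPM, and the mesenchymal gene VIM at 3226 to 4146 CPM. Of the 7 retinal pigment epithelium markers, RPE65, BEST1, RLBP1, TYR and TYRP1 stayed under 1 CPM in all 5 libraries, as did the epithelial KRT19, EPCAM and CDH1, 3 of 4 immune and all 3 endothelial markers. The summed level of the 6 epithelial markers was 390.0 to 474.7 CPM in siCtrl and 508.4 to 509.3 CPM in siFAM53C, and that of the 4 mesenchymal markers 8551 to 11680 CPM in siCtrl and 8959 to 11040 CPM in siFAM53C. The mesenchymal markers did not share a direction. COL1A1 rose with a log2 fold change of 0.74 (SE 0.14; edgeR, adjusted p = 0.031), while CDH2 lay lower in both siFAM53C libraries than in all of siCtrl at -0.44 (SE 0.17; edgeR, adjusted p = 0.24, and 0.00030 with the term), and FN1 and VIM overlapped at 0.13 and -0.14. The part of these markers in the results on the members was not tested.

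Of the 51 members tested, 1 was higher and 0 were lower in siFAM53C at an adjusted p under 0.05 (edgeR quasi-likelihood, Benjamini-Hochberg adjustment over all 15341 genes), where 0.489% of all genes tested were called higher and 3.47% lower. At an unadjusted p under 0.05, 9 members were higher and 2 lower, 17.6% and 3.92% of those tested, where the shares of all genes were 6.61% and 10.5%. The called gene was ULK1. DESeq2 called ULK1 and CTSD higher (3.92% of 51) and 0 members lower, where it called 2.02% of the 12749 genes with an adjusted p higher and 6.98% lower. Limma-voom called ULK1 alone, beside 0.482% of all 15341 genes higher and 3.35% lower. The median log2 fold change of the members was 0.05, with 32 above 0 and 19 below, where the median of all genes tested was 0.02. The members ranged from -0.39 for MTOR to 0.73 for TFEB, where all genes ranged from -7.42 to 5.21.

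Both siFAM53C libraries lay above all siCtrl libraries for 13 members and below all for 8. These counts are 25.5% and 15.7% of the tested members, beside 16.7% and 18.8% of all genes tested. Members without overlap in the upward direction were TFEB, CTSD, ATP6V0D1, ATP6V1A, SQSTM1, NBR1, ULK1, ATG13, ATG9A, WIPI2, ATG4B, FLCN and RPTOR, and those in the downward direction were CTSB, GUSB, ATP6AP1, RB1CC1, ATG3, ATG5, ATG12 and MTOR. With the term for the libraries numbered 3, 9 members were called higher and 3 lower, 17.6% and 5.88% of the members tested, where 6.76% of all genes were called higher and 10.7% lower. The 9 higher were CTSD, ATP6V1A, SQSTM1, NBR1, ULK1, ATG13, WIPI2, FLCN and RPTOR, and the 3 lower were GLA, ATG3 and MTOR. Over 14 fits, the one reported and 13 alternatives, 31 of the 51 members kept one sign, 21 above 0 and 10 below. These fits reuse the same 5 libraries, so their agreement is not repeated evidence. The same count was not made over all genes tested, so it is not read as a result about the members. Exons of 24 of the 51 overlap a gene on the opposite strand, which leaves their values uncertain where reads were counted without regard to strand. Below, a number alone in parentheses after CPM values is the log2 fold change.

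**Figure D1:**
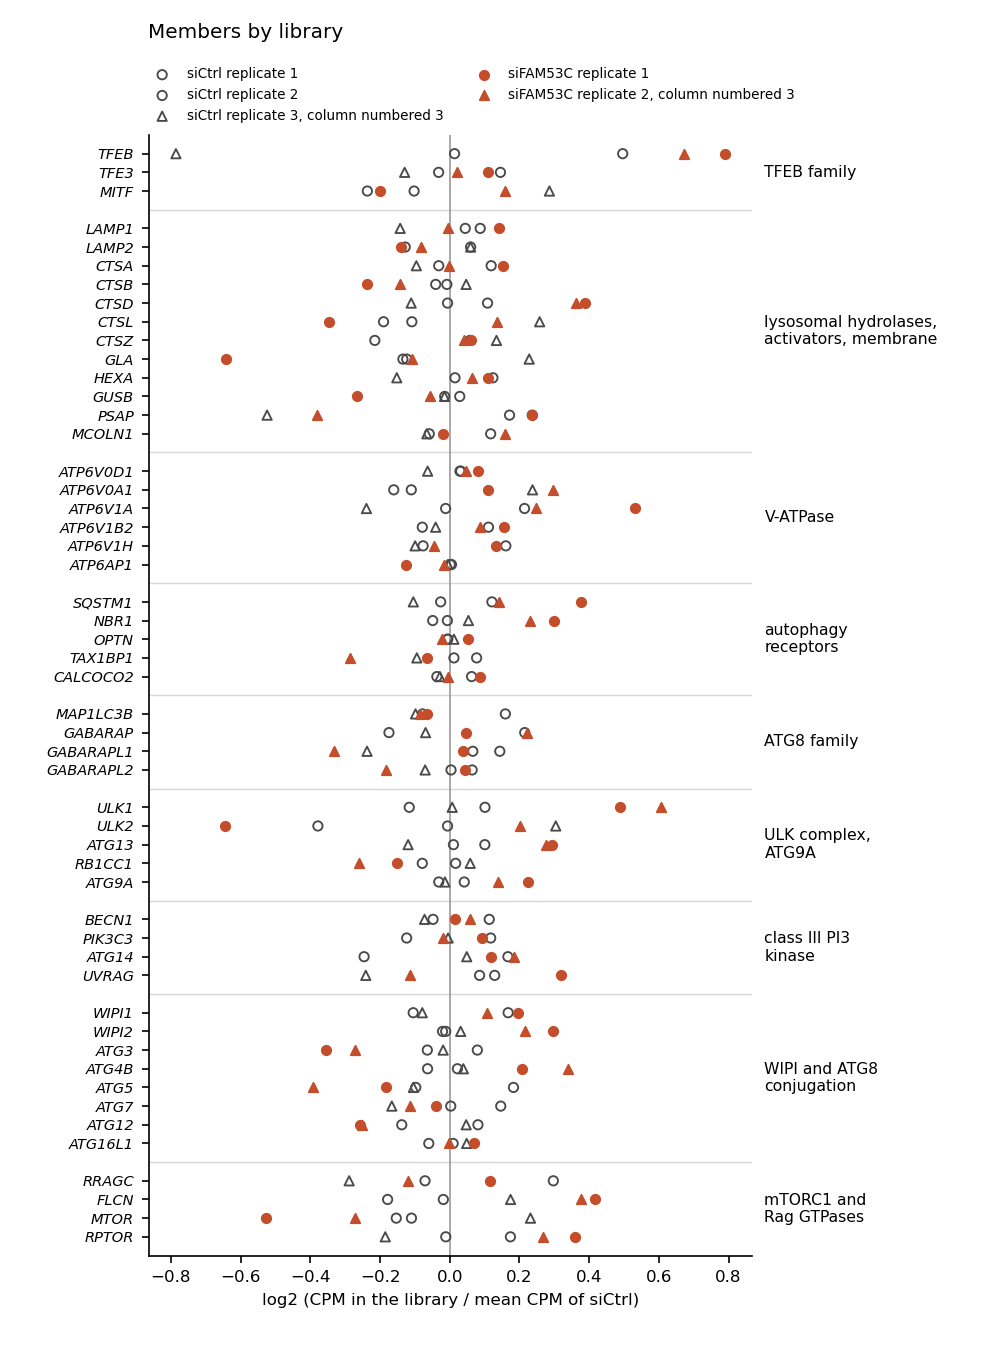
Each row is a tested member and each point a library, placed by the log2 of its CPM over the mean CPM of siCtrl (x axis); open symbols are siCtrl, filled symbols siFAM53C, and triangles the libraries whose columns are numbered 3. The 2 filled symbols lie to the right of all open ones for 13 members, ULK1 and CTSD among them, and to the left for 8, while PSAP and MITF separate by triangle and circle. Of all genes tested, 16.7% separate upward and 18.8% downward in this way.

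**Figure D2:**
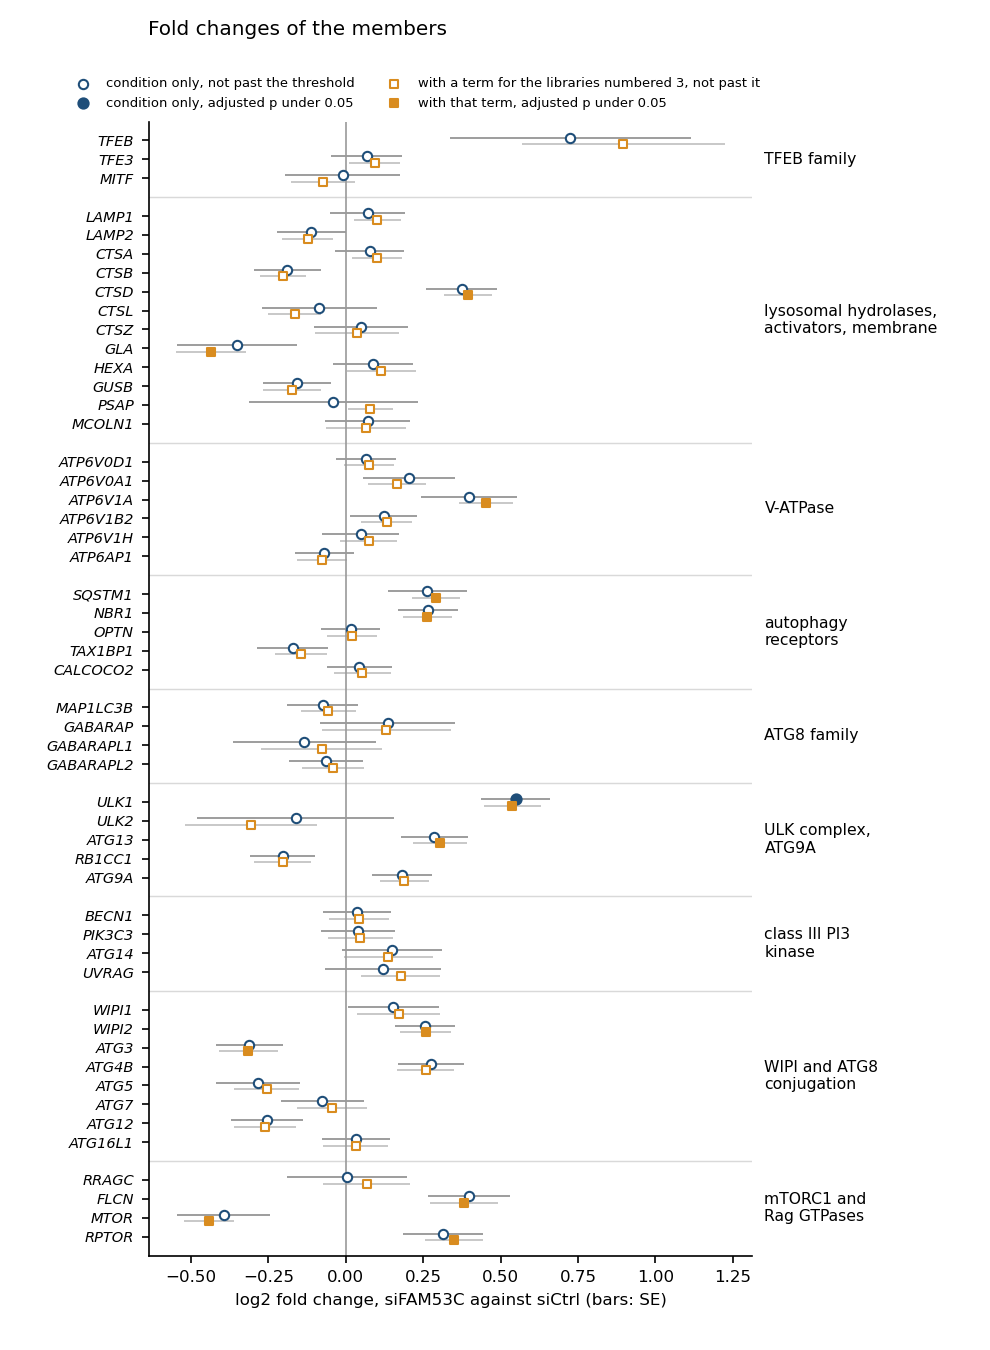
The x axis gives the log2 fold change of siFAM53C against siCtrl for each tested member, with bars of 1 SE; circles come from the fit with the condition only and squares from the fit with a term for the libraries numbered 3, filled where the adjusted p is under 0.05. The only filled circle is ULK1, and 12 squares are filled, 9 higher and 3 lower. With the condition only, 0.489% of all genes were called higher and 3.47% lower. With the term the shares were 6.76% and 10.7%.

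The transcription factors were examined first. TFEB, the best known driver of lysosomal genes, was rare, with raw counts of 93, 54 and 31 in siCtrl and of 128 and 105 in siFAM53C, or 3.95, 2.83 and 1.62 CPM in siCtrl and 4.84 and 4.46 CPM in siFAM53C. Both siFAM53C libraries were the highest of the 5, but siCtrl itself ranged from 1.62 to 3.95 CPM, and the log2 fold change of 0.73 (SE 0.39) had an adjusted p of 0.40 (edgeR). TFE3, its relative, was the most abundant of the family at 40.4 ± 3.95 CPM per kb of MANE Select exons (SD, n = 3), against 8.35 ± 1.62 for MITF and 1.20 ± 0.498 for TFEB. TFE3 had 147, 130 and 122 CPM in siCtrl and 144 and 135 CPM in siFAM53C, with a log2 fold change of 0.07. MITF, which also directs pigment genes, had 34.0, 37.3 and 48.8 CPM in siCtrl and 34.9 and 44.7 CPM in siFAM53C, with a log2 fold change of -0.01. For TFE3 and MITF the conditions overlapped, and MITF was highest in the libraries numbered 3 of each condition.

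Lysosomal hydrolases and membrane proteins included the most abundant members. Per kb, PSAP was highest of all 51 at 686 ± 182 CPM per kb (mean ± SD, n = 3), followed by CTSD at 250.5 ± 19.0, SQSTM1 at 172 ± 13.7, CTSB at 159.8 ± 4.92 and LAMP1 at 151 ± 12.5. SQSTM1 and CTSB, and likewise CTSB and LAMP1, do not differ beyond these SDs. PSAP, the precursor of the saposins that help to degrade sphingolipids, had 2123, 2221 and 1311 CPM in siCtrl and 2218 and 1448 CPM in siFAM53C. The low values of PSAP were those of the libraries numbered 3 in both conditions, and its log2 fold change was -0.04 (SE 0.27) and, within the sides, 0.03 and 0.14.

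CTSD, the aspartic protease cathepsin D, had 555, 512 and 477 CPM in siCtrl and 673 and 662 CPM in siFAM53C. Both siFAM53C libraries lay above all 3 siCtrl libraries. The log2 fold change was 0.37 (SE 0.11) with adjusted p = 0.14 (edgeR), 0.34 and 0.47 within the sides, and 0.39 with the term (edgeR, adjusted p = 0.0021). Opposite-strand genes overlap 1331 of its exon bases and same-strand genes 1556, so part of its reads is uncertain. CTSB, the cysteine protease cathepsin B, had 580.1, 593 and 616 CPM in siCtrl and 506 and 540 CPM in siFAM53C, with both siFAM53C libraries below all siCtrl libraries and a log2 fold change of -0.19 (SE 0.11), which did not pass the test (edgeR, adjusted p = 0.44). CTSL, cathepsin L, overlapped between conditions, with 71.5, 75.7 and 97.5 CPM in siCtrl and 64.2 and 89.6 CPM in siFAM53C and a log2 fold change of -0.09. CTSZ, cathepsin Z, had 24.1, 20.0 and 25.5 CPM in siCtrl and 24.2 and 23.9 CPM in siFAM53C and a log2 fold change of 0.05.

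Among the glycosidases, GLA, the alpha-galactosidase that is deficient in Fabry disease, had 34.2, 33.9 and 43.6 CPM in siCtrl and 23.9 and 34.5 CPM in siFAM53C. The lowest library was siFAM53C replicate 1, while siFAM53C replicate 2 lay within the siCtrl values. The log2 fold change of GLA was -0.35 (SE 0.20; edgeR, adjusted p = 0.42), -0.51 and -0.34 within the sides, and -0.44 with the term (edgeR, adjusted p = 0.013). Its size rested on single libraries, since it was -0.11 without siFAM53C replicate 1, -0.64 without siFAM53C replicate 2 and -0.22 without siCtrl replicate 3. GUSB, beta-glucuronidase, had 68.4, 66.4 and 66.4 CPM in siCtrl and 55.8 and 64.5 CPM in siFAM53C, with no overlap and a log2 fold change of -0.16. HEXA, a subunit of beta-hexosaminidase, had 33.6, 36.2 and 29.9 CPM in siCtrl and 35.9 and 34.8 CPM in siFAM53C, with overlap and a log2 fold change of 0.09. CTSA, which protects beta-galactosidase and neuraminidase, ranged from 125 to 149 CPM over the 5 libraries, with a log2 fold change of 0.08.

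The membrane proteins did not separate the conditions. LAMP1, a heavily glycosylated protein of the lysosomal membrane, had 434, 421 and 369.8 CPM in siCtrl and 450.5 and 406 CPM in siFAM53C and a log2 fold change of 0.07. LAMP2, its relative and a receptor of chaperone-mediated autophagy, had 248, 283 and 283 CPM in siCtrl and 246 and 256 CPM in siFAM53C and -0.11. MCOLN1, the calcium channel TRPML1, had 28.0, 24.8 and 24.7 CPM in siCtrl and 25.5 and 28.8 CPM in siFAM53C and 0.07.

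NEU1, the neuraminidase, was listed with raw counts of 0, 2 and 1 in siCtrl and of 2 and 0 in siFAM53C and was not tested. All 36 protein-coding genes that lie within 200000 bases of NEU1 on chromosome 6 were also listed at under 1 CPM in every library, the highest at 0.509 CPM, and these include CSNK2B, CLIC1 and VARS1, which nearly all cells use. The level of NEU1 therefore cannot be read from this table, and no fold was computed.

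The promoters of these genes were searched for CACGTG, which reads the same on both strands, and for the longer TCACGTGA, which contains it. Windows of 300 bases, from 250 before to 50 after each RefSeq start (GRCh38.p14), were at hand for 43 of the 53 members. CACGTG occurred in 9 members (20.9%), TCACGTGA in 5 (11.6%). A gene was counted where any of its windows held the letters. Over the 10632 tested genes with a window the shares were 12.3% and 2.30%. Over all 35116 windows of the same length, counted singly and so in another unit, they were 7.26% and 0.980%. Most of the 9 members with CACGTG were in the lysosomal group, LAMP1, CTSA, CTSD, NEU1 and MCOLN1 of its 9 genes with a window. The others were ATP6V0D1, ATG14, ATG3 and RRAGC. The windows below show 30 bases around one occurrence in LAMP1, CTSA, MCOLN1, ATP6V0D1 and ATG3, the 5 members with the longer sequence, and in CTSD, which has the shorter one, with the matching letters in capitals.
LAMP1 (chr13:113297199-113297228, plus strand): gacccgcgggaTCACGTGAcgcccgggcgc
CTSA (chr20:45891298-45891327, plus strand): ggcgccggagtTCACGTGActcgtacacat
MCOLN1 (chr19:7522571-7522600, plus strand): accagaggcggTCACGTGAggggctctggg
ATP6V0D1 (chr16:67481199-67481228, minus strand): cccccttatggTCACGTGAggcgcttgcgc
ATG3 (chr3:112561940-112561969, minus strand): agagtctagtgTCACGTGAggccccggtgg
CTSD (chr11:1763957-1763986, minus strand): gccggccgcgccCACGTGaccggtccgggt
LAMP1 held 6 copies of CACGTG, and CTSA, MCOLN1 and ATG3 held 2 each. The 8 tested members with CACGTG had a median log2 fold change of 0.07, from -0.31 for ATG3 to 0.37 for CTSD, and the 34 tested members with a window and without it a median of 0.04. The 5 with TCACGTGA had 0.07 for LAMP1, 0.08 for CTSA, 0.07 for MCOLN1, 0.06 for ATP6V0D1 and -0.31 for ATG3, and none passed edgeR's test without the term. These are matches of letters and were not tested as binding sites.

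The V-ATPase carries protons into the lysosome with a membrane sector, V0, and a catalytic sector, V1. The summed level of the 6 members was 599, 651 and 596 CPM in siCtrl and 684 and 655 CPM in siFAM53C, so both siFAM53C libraries lay above all siCtrl libraries by a small margin. ATP6V1A, the catalytic subunit, differed most, with 87.0, 102 and 74.3 CPM in siCtrl and 127 and 104 CPM in siFAM53C. Its log2 fold change was 0.40 (SE 0.15) with adjusted p = 0.24 (edgeR), 0.43 and 0.49 within the sides, and 0.45 with the term (edgeR, adjusted p = 0.0020). Without siFAM53C replicate 1 it was 0.24. The other V1 subunits overlapped. ATP6V1B2 had 178, 204 and 183 CPM in siCtrl and 210 and 200.1 CPM in siFAM53C (log2 fold change 0.12) and ATP6V1H, a regulatory subunit, 75.9, 89.5 and 74.7 CPM in siCtrl and 87.8 and 77.6 CPM in siFAM53C (0.05). In the V0 sector, ATP6V0D1 had 95.8, 95.7 and 89.7 CPM in siCtrl and 99.1 and 96.8 CPM in siFAM53C, with no overlap and a log2 fold change of only 0.06. ATP6V0A1 had 47.8, 46.2 and 60.9 CPM in siCtrl and 55.7 and 63.4 CPM in siFAM53C, with a log2 fold change of 0.20 and its highest value of siCtrl in replicate 3. The accessory protein ATP6AP1 had 114, 114 and 113 CPM in siCtrl and 104 and 112 CPM in siFAM53C, with a log2 fold change of -0.07 and no overlap, beside a very narrow spread of siCtrl. None of the 6 passed the test with the condition only.

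Autophagy receptors link cargo to ATG8 proteins. SQSTM1, which encodes p62, was the most abundant, with 529.6, 478 and 453 CPM in siCtrl and 632 and 537 CPM in siFAM53C. Both siFAM53C libraries lay above all siCtrl libraries, siFAM53C replicate 2 by a small margin. Its log2 fold change was 0.26 (SE 0.13) with adjusted p = 0.35 (edgeR), 0.33 and 0.25 within the sides, and adjusted p = 0.016 with the term. Without siFAM53C replicate 1 it was 0.14. Genes on the opposite strand overlap 1687 of its exon bases. NBR1, a receptor that works beside p62, had 125, 129 and 134 CPM in siCtrl and 159 and 152 CPM in siFAM53C, with no overlap and a log2 fold change of 0.27 (SE 0.10; edgeR, adjusted p = 0.22; 0.33 and 0.18 within the sides). The remaining receptors overlapped between conditions. OPTN, a receptor for mitochondria and bacteria, had 94.0, 93.9 and 95.1 CPM in siCtrl and 97.9 and 92.9 CPM in siFAM53C (0.02), CALCOCO2, also called NDP52, 54.8, 58.8 and 55.2 CPM in siCtrl and 59.8 and 56.1 CPM in siFAM53C (0.04), and TAX1BP1 91.1, 95.3 and 84.6 CPM in siCtrl and 86.3 and 74.1 CPM in siFAM53C (-0.17).

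The ATG8 proteins are conjugated to lipid and coat the growing membrane. None of the 4 members separated the conditions. MAP1LC3B, which encodes the LC3B used as a marker of autophagosomes, had 124, 146 and 122 CPM in siCtrl and 125 and 123 CPM in siFAM53C, with a log2 fold change of -0.07. Its near-identical copy MAP1LC3B2 had no count in any library. How reads that match both copies were counted is not given, so this does not show that MAP1LC3B2 is silent. GABARAPL2 had 43.3, 45.2 and 41.1 CPM in siCtrl and 44.5 and 38.1 CPM in siFAM53C and a log2 fold change of -0.06. GABARAPL1 and GABARAP were rare. GABARAPL1 had 9.55, 9.05 and 7.33 CPM in siCtrl and 8.88 and 6.88 CPM in siFAM53C (-0.13) and GABARAP 9.25, 7.06 and 7.60 CPM in siCtrl and 8.24 and 9.29 CPM in siFAM53C (0.14). A same-strand gene overlaps 691 exon bases of GABARAP, so its level is uncertain.

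The ULK complex starts autophagy, and held the single called member. ULK1 (ENSG00000177169, GRCh38 chromosome 12 from 131894622 to 131923150 on the plus strand), the kinase of the complex and a direct target of mTORC1 and AMPK, had raw counts of 1335, 1259 and 1178 in siCtrl and of 2279 and 2204 in siFAM53C. This is 56.7, 65.9 and 61.7 CPM in siCtrl and 86.1 and 93.5 CPM in siFAM53C, with the lower of the siFAM53C libraries well above the highest siCtrl library. ULK1 rose 1.46-fold, a log2 fold change of 0.55 (SE 0.11) with adjusted p = 0.038 (edgeR quasi-likelihood, Benjamini-Hochberg adjustment). Within the sides the differences were 0.49 and 0.60, and with the term the log2 fold change was 0.54 (edgeR, adjusted p = 0.00076). Its size stayed between 0.49 and 0.62 over 13 alternatives. Without siCtrl replicate 1, siCtrl replicate 2, siFAM53C replicate 1 or siFAM53C replicate 2 the adjusted p rose to 0.15, 0.12, 0.17 and 0.28 (edgeR), so the call needs each of these libraries. No exon base of ULK1 is shared with another annotated gene. In RNA from bulk cells, a higher level in every cell and a different share of cells with a high level cannot be told apart.

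The RefSeq window of ULK1 is shown because it is the called member. It holds no CACGTG, and is printed in lower case for that reason.
ULK1 (chr12:131894372-131894671, plus strand): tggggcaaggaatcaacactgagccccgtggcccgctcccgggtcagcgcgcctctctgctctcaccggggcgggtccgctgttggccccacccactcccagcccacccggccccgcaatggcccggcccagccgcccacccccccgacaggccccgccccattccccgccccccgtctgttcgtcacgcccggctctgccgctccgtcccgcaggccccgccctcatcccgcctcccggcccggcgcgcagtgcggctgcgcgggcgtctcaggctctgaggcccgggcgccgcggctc

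The partners of ULK1 differed among themselves. ATG13, which bridges ULK1 to the rest of the complex, had 76.5, 71.9 and 65.7 CPM in siCtrl and 87.5 and 86.5 CPM in siFAM53C, with no overlap and a log2 fold change of 0.29 (SE 0.11; edgeR, adjusted p = 0.23; 0.025 with the term). RB1CC1, the scaffold FIP200, lay on the other side, with 67.9, 72.6 and 74.7 CPM in siCtrl and 64.6 and 59.8 CPM in siFAM53C and a log2 fold change of -0.20 (SE 0.11; edgeR, adjusted p = 0.39). ATG9A, a scramblase that seeds the membrane, had 119, 114 and 115 CPM in siCtrl and 135 and 128 CPM in siFAM53C, with no overlap and a log2 fold change of 0.18; a same-strand gene overlaps 1833 of its exon bases. ULK2, the paralog of ULK1, was rare, with 8.53, 6.59 and 10.6 CPM in siCtrl and 5.48 and 9.85 CPM in siFAM53C and overlapping conditions (-0.16). Per kb in siCtrl, ULK1 stood at 11.5 ± 0.867 CPM and ULK2 at 0.937 ± 0.218 (SD, n = 3). The summed level of the 5 genes was 329, 330.5 and 328 CPM in siCtrl and 379 and 377 CPM in siFAM53C.

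The class III PI3 kinase makes the lipid PI3P on the growing membrane. Its members showed no separation. BECN1 (Beclin 1) had 58.8, 52.5 and 51.7 CPM in siCtrl and 54.9 and 56.5 CPM in siFAM53C (0.04) and PIK3C3, the catalytic subunit VPS34, 43.1, 50.9 and 46.8 CPM in siCtrl and 50.04 and 46.3 CPM in siFAM53C (0.04). ATG14, which directs the complex to autophagy, had 24.4, 18.4 and 22.5 CPM in siCtrl and 23.6 and 24.7 CPM in siFAM53C (0.15), and UVRAG, which takes its place in the endosomal complex, 23.3, 23.97 and 18.6 CPM in siCtrl and 27.4 and 20.2 CPM in siFAM53C (0.12). All 4 log2 fold changes lay above 0 and none passed an unadjusted p of 0.05 in edgeR's test.

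WIPI proteins read PI3P and recruit the machinery that joins ATG8 proteins to lipid. WIPI2, the one that recruits ATG16L1, had 86.2, 85.7 and 88.8 CPM in siCtrl and 107 and 101 CPM in siFAM53C, with no overlap and a log2 fold change of 0.26 (SE 0.10; edgeR, adjusted p = 0.23; 0.041 with the term). ATG4B, the protease that trims ATG8 proteins, had 50.6, 47.7 and 51.2 CPM in siCtrl and 57.6 and 63.1 CPM in siFAM53C, also with no overlap (log2 fold change 0.27, SE 0.11; edgeR, adjusted p = 0.24). In the conjugation cascade, ATG3, ATG5 and ATG12 lay below all siCtrl libraries. Of the 8 genes of this group, these 3 lay below and 2 above, where 18.8% and 16.7% of all genes tested did so. Whether these counts differ from those shares was not tested. ATG3, the E2-like enzyme that transfers ATG8 to lipid, had 61.7, 68.1 and 63.6 CPM in siCtrl and 50.5 and 53.5 CPM in siFAM53C, with a log2 fold change of -0.31 (SE 0.11; edgeR, adjusted p = 0.19; 0.031 with the term). ATG5 had 51.5, 62.6 and 51.3 CPM in siCtrl and 48.6 and 42.0 CPM in siFAM53C, and its partner ATG12, the ubiquitin-like protein joined to it, 49.96, 58.1 and 56.8 CPM in siCtrl and 46.0 and 46.1 CPM in siFAM53C. Their log2 fold changes were -0.28 (SE 0.14) and -0.25 (SE 0.12), both with siFAM53C below all of siCtrl and neither past the test. ATG7, the E1-like enzyme of both branches, overlapped, with 35.1, 38.8 and 31.2 CPM in siCtrl and 34.1 and 32.3 CPM in siFAM53C (-0.08), as did ATG16L1 with 38.5, 36.7 and 39.5 CPM in siCtrl and 40.1 and 38.1 CPM in siFAM53C (0.03) and WIPI1 with 20.8, 25.2 and 21.2 CPM in siCtrl and 25.7 and 24.1 CPM in siFAM53C (0.15). Of the 8 genes, 4 lay above 0 and 4 below, with a median of -0.02.

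In the mTORC1 pathway the kinase and its partner lay on different sides. MTOR had 118, 114 and 149 CPM in siCtrl and 88.0 and 105 CPM in siFAM53C, with both siFAM53C libraries below all siCtrl libraries. Its log2 fold change was -0.39 (SE 0.15) with adjusted p = 0.24 (edgeR), -0.40 and -0.50 within the sides, and -0.44 with adjusted p = 0.0011 with the term. Without siCtrl replicate 3 it was -0.26. RPTOR, the subunit that presents substrates to the kinase, had 79.1, 69.5 and 61.7 CPM in siCtrl and 89.9 and 84.4 CPM in siFAM53C, with both siFAM53C libraries above all siCtrl libraries. Its log2 fold change was 0.31 (SE 0.13) with adjusted p = 0.26 (edgeR), 0.28 and 0.45 within the sides and adjusted p = 0.016 with the term. FLCN, folliculin, which switches RRAGC and RRAGD to their active state, had 30.7, 34.3 and 39.2 CPM in siCtrl and 46.4 and 45.1 CPM in siFAM53C, with no overlap and a log2 fold change of 0.40 (SE 0.13; edgeR, adjusted p = 0.18). Within the sides, FLCN differed by 0.51 and 0.20, and a same-strand gene overlaps 1161 of its exon bases. RRAGC overlapped, with 23.6, 30.5 and 20.3 CPM in siCtrl and 26.9 and 22.9 CPM in siFAM53C (0.00). RRAGD was close to undetected, with raw counts of 0, 0 and 9 in siCtrl and of 2 and 0 in siFAM53C, and was not tested.

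**Figure D3:**
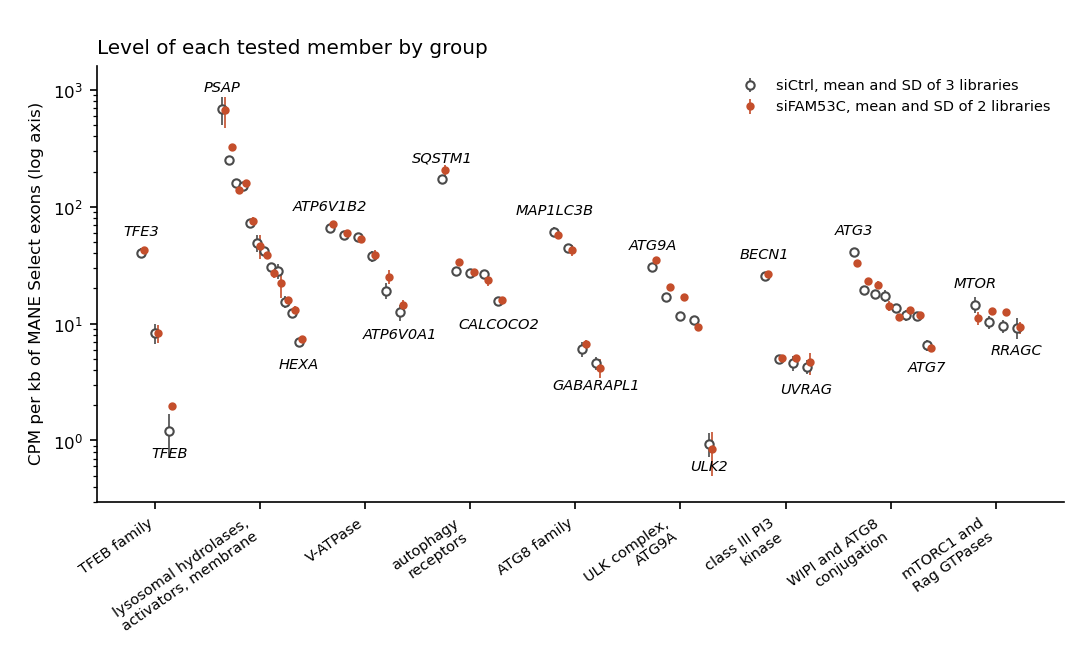
The y axis (log scale) gives CPM per kb of MANE Select exons for each tested member, by group; open circles are the mean of 3 siCtrl libraries and filled circles the mean of 2 siFAM53C libraries, with bars of 1 SD, and the highest and lowest of each group are named. PSAP is the highest at 686 and ULK2 the lowest at 0.937 CPM per kb in siCtrl.

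Other genes of the same pathways were taken as 4 whole lists of 122 genes, of which 116 were tested. By edgeR with Benjamini-Hochberg adjustment over all genes, 4 were lower and 0 higher, so that 3.45% were called lower, about the 3.47% of all genes. At an unadjusted p under 0.05, 11 were lower and 10 higher (9.48% and 8.62%), beside the 10.5% and 6.61% of all genes. DESeq2 called 6 of the 114 with an adjusted p lower (5.26%) and 1, ARSA, higher (0.877%), both under its shares of 6.98% and 2.02% over all genes. Their median log2 fold change was 0.02, with 60 above 0 and 56 below. The 4 called genes were FNIP2, STX17, GALC and LAPTM4A, and each had both siFAM53C libraries below all siCtrl libraries.

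FNIP2 (ENSG00000052795, GRCh38 chromosome 4 from 158769026 to 158908050 on the plus strand), a partner of folliculin in the complex that acts on RRAGC and RRAGD, had 53.3, 60.6 and 59.1 CPM in siCtrl and 28.9 and 27.3 CPM in siFAM53C. It fell to 0.487 of the siCtrl level, a log2 fold change of -1.04 (SE 0.12) with adjusted p = 0.0035 (edgeR), and the differences within the sides were -0.97 and -1.11. FNIP1, its relative, had 51.7, 55.5 and 47.1 CPM in siCtrl and 53.5 and 51.6 CPM in siFAM53C, with a log2 fold change of 0.03. The fall of FNIP2 stayed past the threshold without any 1 library, with adjusted p up to 0.038 (edgeR). FLCN and FNIP2, whose products work together, thus lay on different sides of siCtrl. The difference of FLCN did not pass the test (edgeR, adjusted p = 0.18).

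STX17 (ENSG00000136874, GRCh38 chromosome 9 from 99906654 to 99974534 on the plus strand), the SNARE protein that fuses closed autophagosomes with lysosomes, had 18.8, 17.9 and 18.2 CPM in siCtrl and 10.2 and 9.51 CPM in siFAM53C. Its log2 fold change was -0.89 (SE 0.16) with adjusted p = 0.023 (edgeR), and -0.84 and -0.93 within the sides. An opposite-strand gene overlaps 146 of its exon bases. LAPTM4A (ENSG00000068697, GRCh38 chromosome 2 from 20032650 to 20051628 on the minus strand), a membrane protein of late endosomes and lysosomes, had 223, 264 and 242 CPM in siCtrl and 135 and 169.8 CPM in siFAM53C, with -0.67 (SE 0.14) on the log2 scale (edgeR, adjusted p = 0.040) and -0.84 and -0.51 within the sides. Without siCtrl replicate 1, siCtrl replicate 2, siFAM53C replicate 1 or siFAM53C replicate 2, the adjusted p of STX17 was 0.11 to 0.18 and that of LAPTM4A 0.073 to 0.30 (edgeR), so these calls need each of the 4 libraries. The log2 fold changes in these fits were -0.95 to -0.85 for STX17 and -0.85 to -0.52 for LAPTM4A.

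GALC (ENSG00000054983, GRCh38 chromosome 14 from 87837820 to 87993665 on the minus strand), the galactosylceramidase deficient in Krabbe disease, had 9.93, 11.9 and 10.8 CPM in siCtrl and 1.97 and 2.84 CPM in siFAM53C. An opposite-strand gene overlaps 392 of the exon bases of GALC. GALC showed the largest fall of the 116 genes, a log2 fold change of -2.18 (SE 0.27) with adjusted p = 0.0047 (edgeR), and -2.42 and -1.90 within the sides. Its call held without any 1 library, with adjusted p up to 0.047 (edgeR). Just outside the threshold in edgeR lay RAB7A, the GTPase of late endosomes, and FYCO1, which links autophagosomes and RAB7A to kinesin. RAB7A had 326, 351 and 308 CPM in siCtrl and 244 and 234 CPM in siFAM53C (log2 fold change -0.46, SE 0.11, edgeR adjusted p = 0.069). FYCO1 had 73.8, 69.3 and 65.6 CPM in siCtrl and 51.5 and 39.8 CPM in siFAM53C (log2 fold change -0.61, SE 0.14, edgeR adjusted p = 0.059). DESeq2 called both lower, with adjusted p = 0.0062 for RAB7A and 0.0080 for FYCO1. With the term, edgeR gave an adjusted p of 0.0010 for RAB7A and 0.00059 for FYCO1. RHEB, the GTPase that activates mTORC1, had a log2 fold change of -0.37, and its inhibitor TSC1 0.36, neither past the test (edgeR, adjusted p = 0.20 and 0.24). RAB7A, FYCO1, FNIP1, RHEB and TSC1 were chosen after their values were seen.

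**Figure D4:**
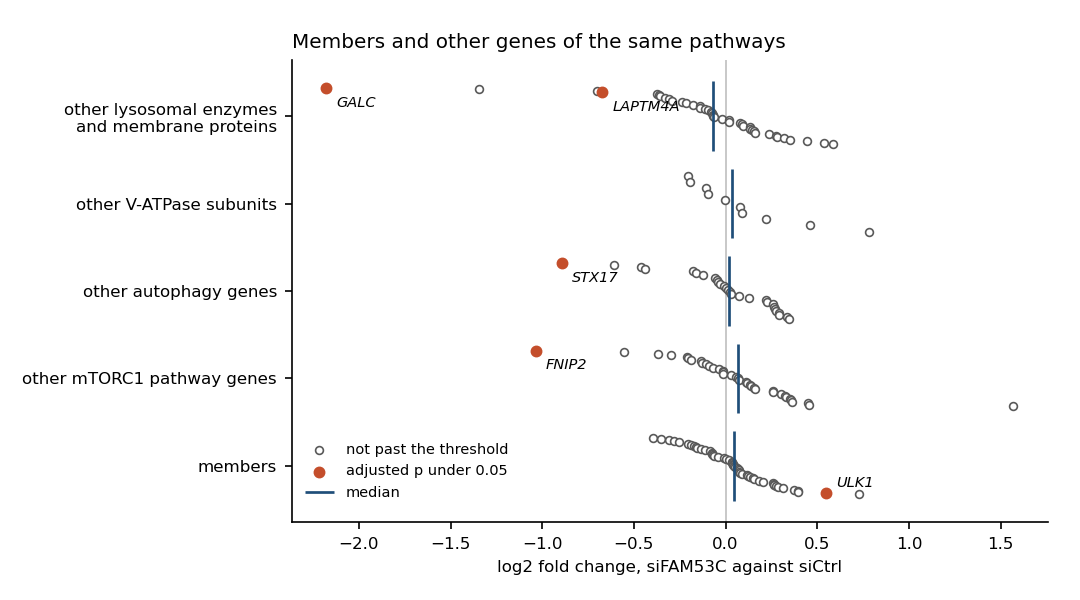
Each point is a tested gene, placed by its log2 fold change of siFAM53C against siCtrl (x axis); rows are the 4 lists of other pathway genes and the 51 members, vertical bars are medians, and filled points have an adjusted p under 0.05. The 4 filled points of the other lists all lie to the left, from -2.18 for GALC to -0.67 for LAPTM4A, and the filled point of the members, ULK1, lies to the right.

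**Figure D5:**
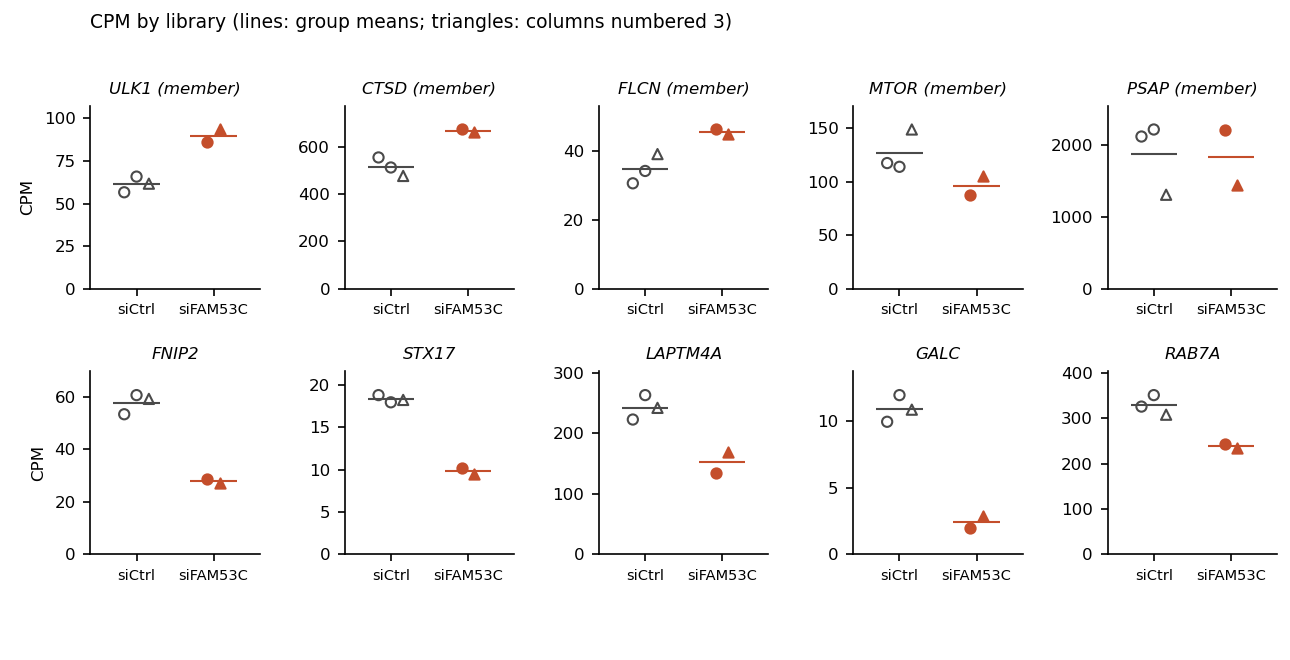
The y axes give the CPM of 5 members (top) and 5 other pathway genes (bottom) in each library, starting at 0; open symbols are siCtrl, filled symbols siFAM53C, lines are group means and triangles the libraries numbered 3. The conditions separate in every panel but PSAP, where the triangles are low in both conditions. The genes were picked for display. Of all 51 tested members, 13 separate upward and 8 downward (25.5% and 15.7%), beside 16.7% and 18.8% of all genes tested.

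The 7-base sequence GACAAGA was also looked for in 3' UTRs, because genes that hold it were more often lower in earlier results of these data. Among tested genes with an annotated 3' UTR, 11.6% held it in their longest one. Of these 1400 genes, 15.1% were called lower by edgeR, against 2.92% of the 10675 without it. The earlier results came from the same libraries, so this contrast repeats them and is not separate evidence. Genes with and without the sequence were not matched for 3' UTR length. FAM53C itself held 1 copy of the sequence. Of the 51 tested members 3 held it, CTSB, TAX1BP1 and GABARAPL1 (5.88%), with log2 fold changes of -0.19, -0.17 and -0.13, and none was called. The match of TAX1BP1 lay in its longest annotated 3' UTR, and a search of its MANE Select 3' UTR found none. ULK1 and the other 47 members did not hold the sequence. Of the 116 other pathway genes 13 held it (11.2%), and FNIP2, STX17 and LAPTM4A did not. These 13 had a median log2 fold change of 0.08, with 6 below 0 and 7 above, and 1 of them, GALC, was called lower. They ranged from -2.18 for GALC and -0.61 for FYCO1 to 0.45 for WDR59, which held 3 copies, 0.46 for DEPTOR and 0.59 for ARSA. The sites in the MANE Select 3' UTRs of GABARAPL1, GALC and FYCO1 are shown as examples, the last 2 being the holders with the lowest log2 fold changes of the 13. They are given with 10 bases on either side, read from GRCh38 on the strand of the gene, with the 7 bases in capitals.
GABARAPL1 (chr12:10222540-10222566, plus strand): aactggaattGACAAGAgtgttgagca
GALC (chr14:87933538-87933564, minus strand): tgcttttgaaGACAAGAagataagtgc
FYCO1 (chr3:45920565-45920591, minus strand): cctattcccaGACAAGAattatttaat
The part of this sequence in the values of these genes was not tested.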

How the data were processed

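RNA-seq counts per gene came from 3 siCtrl and 2 siFAM53C libraries of RPE-1 cells. The authors deposited raw counts made with CutAdapt 2.10, HISAT2 (reverse-stranded, hg38) and featureCounts, without normalization; the release of the annotation is not given in the sources used here, nor is the strand setting of the counting, so genes whose exons overlap an opposite-strand gene are uncertain. The test was run in edgeR 4.0.16 under R 4.3.3 (filterByExpr with a minimum count of 10, TMM factors, robust quasi-likelihood test, Benjamini-Hochberg adjustment over all genes tested, threshold 0.05); log2 CPM within the sides used a prior count of 2. DESeq2 1.42.0 and limma-voom (limma 3.58.1) were alternatives, as were other scaling, no filter, replicate blocks, the term for the libraries numbered 3 and each library left out, and the tools were tested on simulated data. Symbols and positions are from GENCODE release 44 (56105 of 64252 identifiers). Levels per kb used the MANE Select transcript. Named are FAM53C, members and other pathway genes past the threshold, members without overlap and the most abundant of each group; all members are given by values. The members, lists, sequences and alternatives were chosen with earlier results of these data known.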

Additional observations from a re-analysis of the deposited data

How the results depend on the processing

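The log2 fold change of FAM53C kept its direction and call under all 13 alternatives, from -2.07 to -1.42. The counts of called members moved with the model of the libraries. Members called higher numbered 1 with the condition only, 2 with DESeq2, 2 with a replicate block by the numbers in the sample titles, 3 with a replicate block by the numbers in the column names, and 9 with the term for the libraries numbered 3. Members called lower numbered 0, and 2 with the block by column names and 3 with the term. With 1 library left out, they were 0 to 2 higher and 0 to 0 lower, where 6 to 414 of all genes were called higher and 157 to 886 lower. Of the other pathway genes, 4 were called lower with the condition only, and 7, 9 and 11 under the blocks by titles, by column names and the term. Called higher were 0, and then 3, 8 and 11, with 4 without the filter on low counts and 1 with DESeq2; with 1 library left out, 2 to 6 were lower and 0 to 3 higher. Over all genes, edgeR called 533 lower and 75 higher, DESeq2 890 and 257 of 12749, limma-voom 514 and 74, total counts only 415 and 121, no filter 961 and 375 of 26587, the block by titles 856 and 355, the block by column names 1350 and 642, and the term 1636 and 1037. The cause of these differences was not tested. Deviations of siFAM53C replicate 1 from the mean of its condition correlated with those of siCtrl replicates 1, 2 and 3 at 0.17, 0.28 and -0.37. With 2 siFAM53C libraries, the values for replicate 2 are the same with opposite signs and add no evidence. The positive value for siFAM53C replicate 2 was 0.37, with siCtrl replicate 3, the other library numbered 3. These values do not decide whether the numbers pair the samples. The median log2 fold change of the members was 0.05, 0.12 with total counts only, where the median of all genes was 0.09, and 0.016 to 0.086 with 1 library left out. LAPTM4A lost its call with total counts only (log2 fold change -0.60, edgeR, adjusted p = 0.057). With 2 siFAM53C libraries, the SE of the log2 fold change of a tested member was 0.10 to 0.39, which limits what the condition alone can resolve.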

Other observations

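PLEKHM1, an adaptor between RAB7A and the fusion machinery, was listed with raw counts of 2, 2 and 3 in siCtrl and of 101 and 1 in siFAM53C and was not tested. Its single higher value was that of siFAM53C replicate 1. Of the 3 protein-coding genes within 200000 bases of PLEKHM1, 2 stayed under 1 CPM in every library, and MAP3K14 reached 23.2 CPM. Whether the level of PLEKHM1 can be read from these counts was not settled. MAN2B1, lysosomal alpha-mannosidase, had 33.9, 36.0 and 33.2 CPM in siCtrl and 45.0 and 42.6 CPM in siFAM53C, and ARSA, arylsulfatase A, 19.5, 15.5 and 17.2 CPM in siCtrl and 24.1 and 28.2 CPM in siFAM53C, both without overlap and with log2 fold changes of 0.35 (SE 0.11) and 0.59 (SE 0.16) that did not pass edgeR's test (adjusted p = 0.16 and 0.11). SESN2, a stress-induced sensor of leucine, separated by the number of the column, with 43.4, 36.2 and 19.2 CPM in siCtrl and 53.6 and 25.1 CPM in siFAM53C and a log2 fold change of 0.26 (SE 0.46). These genes were chosen after their values were seen.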
